A study of Mus musculus with 6 samples.

Results

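The transcripts described here are the 10 genes of oxygen sensing by hypoxia-inducible factor (HIF) and of a panel of its targets, picked by symbol from the 26469 gene rows of a table of counts, and all 10 were found and passed the filter on low counts, as did 18323 rows in all. Hif1a, Vhl, Egln1, Egln2 and Egln3 were grouped as the sensing side, and Bnip3, Bnip3l, P4ha1, Vegfa and Pdk1 as the targets. They were measured by RNA sequencing in mouse splenic CD4+ T cells that had started as naive cells and had been cultured for 36 h towards regulatory T cells. The medium held TGF-β at 5 ng/ml, hamster antibodies that trigger CD3 and CD28, and antibodies that block IL-4 and IFNγ, in both groups alike. In the 3 mutant samples the mice were Sf3b1K700E/fl with Cd4Cre, and the samples are annotated as Sf3b1 mutation. In the 3 control samples the mice were Sf3b1K700E/fl without Cre, and the samples are annotated as WT, so both groups carry the conditional allele. Sf3b1 encodes a splicing factor of the U2 snRNP, and K700E is its best known change in cancers. Cd4Cre acts throughout the T cell lineage that has passed a CD4-expressing stage. The ages of the mice, the oxygen tension of the cultures and whether each sample came from its own animal are not stated, so each p-value reflects just the scatter among the 6 samples, some of which may be technical. In bulk RNA, fewer cells of a type and less RNA per cell cannot be told apart.

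HIF-1α, the product of Hif1a, is the subunit of HIF that oxygen controls. The EGLN enzymes, also called PHD enzymes, hydroxylate it on proline when oxygen is present, and the VHL protein then recognises the hydroxylated form as part of a ubiquitin ligase that sends it for destruction. When oxygen is short, and in T cells also after activation of the antigen receptor and mTOR, HIF-1α persists and switches on genes for glycolysis, mitophagy, collagen modification and vessel growth. Egln1 and Egln3 are themselves induced by HIF and close a feedback loop. In CD4+ T cells HIF-1α is known for favouring the Th17 over the regulatory fate.

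Total counts per library lay between 34524433 and 36867313 in mutant and between 33633196 and 43928723 in control libraries, and control 2 was the deepest. The smallest deposited count of any of the 10 genes was 169 (Vegfa in mutant 3). Sf3b1 itself was at 627 ± 30.4 CPM (counts scaled to a common library size with TMM factors) in mutant and 661 ± 44.3 CPM in control cells (SD, n = 3 each), and counts per gene do not show the allele. The defining CD4+ T cell markers were high in every library, with 7 genes from Cd3d to Trac adding up to 1769 to 2470 CPM in mutant and 1562 to 2160 CPM in control libraries. Several of the 6 libraries stood apart. Foxp3, the transcription factor gene of regulatory T cells, was at 230, 118 and 52.3 CPM in mutant 1, 2 and 3. In control 1, 2 and 3 it was at 119, 139 and 108 CPM, so mutant 1 was the highest library and mutant 3 the lowest. Mutant 1 had 2214 CPM over 7 naive T cell markers, against 883 to 986 CPM in the other mutant and 979 to 1114 CPM in the control libraries. Mutant 2 had 31.9 CPM over 5 B cell markers, against 3.65 to 6.90 CPM in the other mutant and 1.92 to 4.38 CPM in the control libraries. Control 1 had Xist RNA at 3475 CPM, against at most 0.661 CPM elsewhere, and no Ddx3y count, the pattern of a female, while the other libraries had that of males. It also had the highest sum of 2 CD8 markers, 40.4 CPM, against 5.81 to 17.3 CPM elsewhere. Control 2 stood apart in the targets themselves, as given below with the values. The markers of myeloid cells summed to 17.5 to 24.6 CPM in mutant and 17.6 to 19.3 CPM in control libraries, and erythroid markers to 0.537 to 1.87 CPM and 0.606 to 1.13 CPM. No marker on these lists was at 0 in all 6 libraries. The 8 activation markers summed to 4665, 6271 and 5388 CPM in mutant 1, 2 and 3, against 6133, 6432 and 6515 CPM in control 1, 2 and 3, so mutant 1 and mutant 3 lay below every control. Among them Irf4, a transcription factor gene induced through the antigen receptor, was at 575, 723 and 750 CPM in mutant libraries, against 1024, 952 and 1051 CPM in control libraries. Myc was likewise lower in every mutant library, at 252, 226 and 281 CPM, against 307, 285 and 309 CPM in control libraries. The sums of the groups overlapped, with mutant 2 above control 1. Of the 8 markers only Tnfrsf9 had a higher mean in mutant cells. It was at 122, 294 and 164 CPM in mutant libraries, against 152, 222 and 161 CPM in control libraries, so mutant 2 alone lay above every control. The part of these features in the results was not tested.

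To show what lies before the starts of genes on either side, the 250 bases upstream of the first listed start are given for the targets Bnip3, P4ha1 and Vegfa, for the feedback enzyme Egln3, and for Vhl. They are RefSeq promoter sequences on GRCm38.p6, another build than that of the counts, written 5′ to 3′ along the gene. Capitals mark ACGTG or GCGTG on either strand, the core letters that HIF binds in a hypoxia response element. CACGTG counts as ACGTG on both strands.
Bnip3, chr7:138909507-138909756, minus strand: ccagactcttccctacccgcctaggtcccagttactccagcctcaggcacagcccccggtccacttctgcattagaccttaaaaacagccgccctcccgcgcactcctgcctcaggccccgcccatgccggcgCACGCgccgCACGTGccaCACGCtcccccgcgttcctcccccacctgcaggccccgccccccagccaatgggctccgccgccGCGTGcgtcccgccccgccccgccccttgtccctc
P4ha1, chr10:59323046-59323295, plus strand: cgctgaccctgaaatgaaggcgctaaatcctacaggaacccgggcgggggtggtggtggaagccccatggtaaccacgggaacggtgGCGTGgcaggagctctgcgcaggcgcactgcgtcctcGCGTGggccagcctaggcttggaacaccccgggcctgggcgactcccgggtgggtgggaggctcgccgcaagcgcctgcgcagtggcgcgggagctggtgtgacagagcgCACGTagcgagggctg
Egln3, chr12:54203875-54204124, minus strand: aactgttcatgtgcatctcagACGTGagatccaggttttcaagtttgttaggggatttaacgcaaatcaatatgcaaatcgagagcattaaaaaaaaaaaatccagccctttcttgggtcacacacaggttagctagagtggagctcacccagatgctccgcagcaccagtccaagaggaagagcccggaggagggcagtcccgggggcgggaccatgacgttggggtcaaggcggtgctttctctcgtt
Vegfa, chr17:46032378-46032627, minus strand: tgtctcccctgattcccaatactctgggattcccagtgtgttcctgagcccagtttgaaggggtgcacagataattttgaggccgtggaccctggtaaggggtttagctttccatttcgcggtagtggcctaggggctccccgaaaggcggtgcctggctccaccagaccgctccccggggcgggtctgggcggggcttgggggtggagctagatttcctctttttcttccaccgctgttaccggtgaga
Vhl, chr6:113623744-113623993, plus strand: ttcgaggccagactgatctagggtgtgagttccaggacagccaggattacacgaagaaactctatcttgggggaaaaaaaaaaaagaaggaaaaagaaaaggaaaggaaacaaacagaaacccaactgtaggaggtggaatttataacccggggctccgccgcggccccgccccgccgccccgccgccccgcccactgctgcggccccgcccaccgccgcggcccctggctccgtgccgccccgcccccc
Bnip3, which encodes a receptor for mitophagy on the outer mitochondrial membrane, held 5 matches, among them a CACGTG starting 108 bases before the start. P4ha1, for a catalytic subunit of collagen prolyl 4-hydroxylase, held 3 and Egln3 held 1. The windows of Vegfa, which encodes the main growth factor for vessels, and of Vhl held none, which says only that these letters are not in these 250 bases. Among the windows not printed, that of Egln2, which had a higher mean in mutant cells, held 4 matches. Hif1a held 3, Egln1 held 2 and Pdk1 held 1, and a second listed start of Vegfa had 2. Matches were thus found in genes of either direction. Of the 10 genes, 9 were listed in the promoter table, Bnip3l being the other. At the first listed start, the windows of 7 of the 9 held at least 1 match. Of all 32851 windows of this length, with every listed start counted, 38.6% did so. The windows were not matched for their share of G and C, which ran from 50.8% (Egln3) to 86% (Egln1) in the 9. The matches are a description of letters and were not tested as binding sites.

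Between mutant and control cells, 8 of the 10 genes had a lower mean in mutant cells and 2, Vhl and Egln2, a higher one, where 47.1% of all genes tested had a fitted log2 fold change below 0. The median log2 fold change was -0.71 over the 5 targets and -0.20 over the sensing side, against 0.02 over all genes tested. With 1 library left out the median of the targets lay between -0.92 and -0.61. That of the sensing side was closer to 0 when mutant 1 (-0.04), control 1 (-0.05) or control 3 (-0.12) was dropped, and further from it when mutant 2 or control 2 was (-0.39 each). The gaps were widest for Vegfa, Bnip3 and Egln3 and narrowest for Bnip3l and Hif1a. None of the 10 passed the adjusted threshold of the main test, as given with the tests.

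On the sensing side, Hif1a (ENSMUSG00000021109) was at 169, 275 and 203 CPM in mutant 1, 2 and 3, against 297, 177 and 269 CPM in control 1, 2 and 3. The groups overlapped fully, with control 2 near the lowest mutant value and mutant 2 near the highest control value. Hif1a averaged 216 ± 53.8 CPM in mutant and 248 ± 62.8 CPM in control cells (SD, n = 3 each), a log2 fold change of -0.20 ± 0.25 (SE; 95% interval from -0.77 to 0.37). Without mutant 1 the value was -0.04, and without control 2 it was -0.39. The interval includes no difference and does not show that the level was alike. The message says nothing of the HIF-1α protein, which is the form that oxygen controls.

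Vhl (ENSMUSG00000033933), the substrate receptor of the ligase, was at 32.1, 25.3 and 27.4 CPM in mutant libraries, against 20.6, 24.4 and 20.9 CPM in control libraries. The groups did not overlap, and the gap between mutant 2 and control 2 was small. The log2 fold change of Vhl was 0.36 ± 0.16 (SE; 95% interval from -0.003 to 0.73).

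The 3 EGLN genes differed in the direction of their means. Egln1 (ENSMUSG00000031987), which encodes PHD2, the main oxygen sensor of most cells, was at 58.2, 58.3 and 56.5 CPM in mutant libraries, against 85.9, 74.4 and 73.1 CPM in control libraries. Its mutant values were nearly equal and all lay below the lowest control, with a log2 fold change of -0.43 ± 0.13 (SE; 95% interval from -0.73 to -0.13). Egln3 (ENSMUSG00000035105), which encodes PHD3, was at 45.8, 22.1 and 38.0 CPM in mutant libraries, against 107, 55.2 and 64.1 CPM in control libraries. Here too the groups did not overlap, the means were 2.14-fold apart, and the fitted log2 fold change came to -1.09 ± 0.33 (SE; 95% interval from -1.85 to -0.33). Egln2 (ENSMUSG00000058709), which encodes PHD1 and is not known as a HIF target, was at 26.7, 14.9 and 17.0 CPM in mutant libraries, against 16.4, 17.2 and 13.8 CPM in control libraries. Its higher mutant mean rested on mutant 1, and without that library the log2 fold change of 0.30 ± 0.24 (SE; 95% interval from -0.26 to 0.86) became 0.024. Of the EGLN genes, both that HIF induces had mutant values under all controls, and Egln2 overlapped between the groups.

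**Figure D1:**
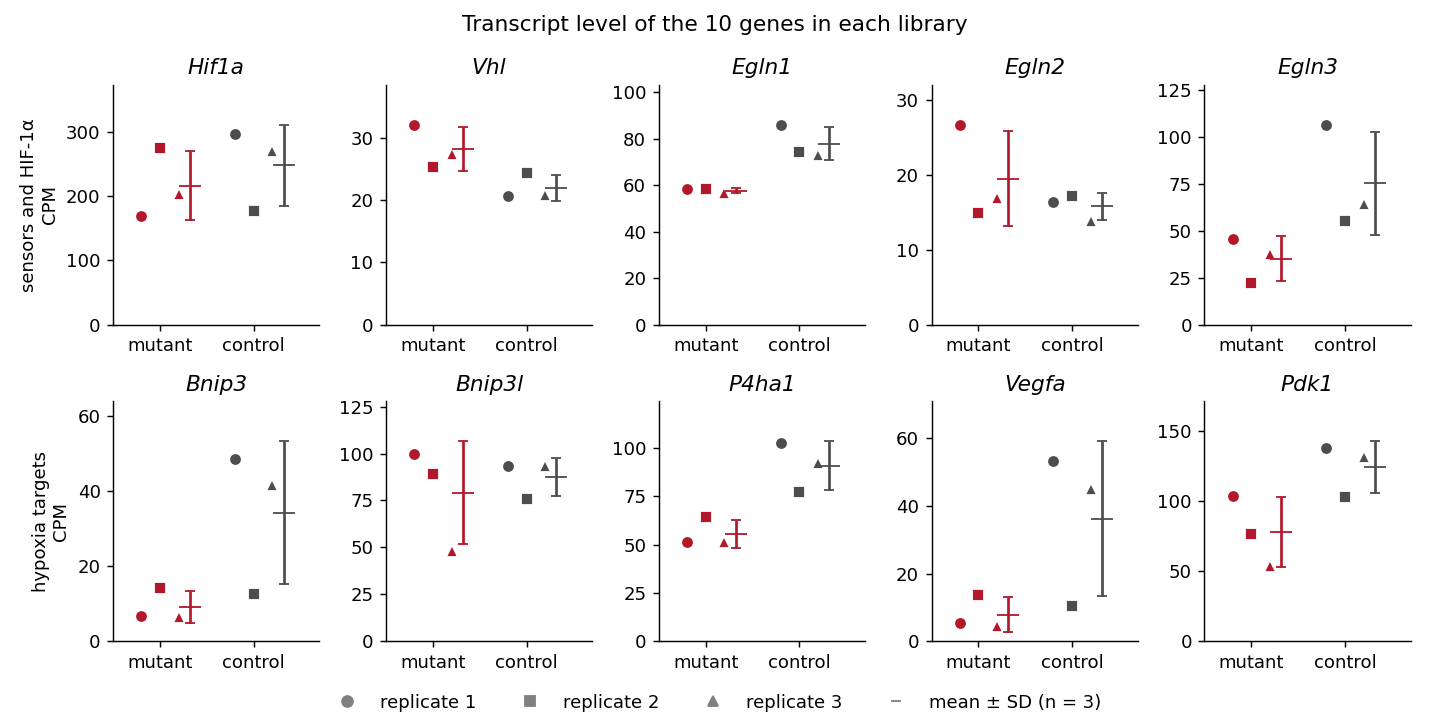
Level of each of the 10 genes in CPM (TMM-scaled) in the 3 mutant (red, left) and 3 control (grey, right) libraries, 1 symbol per replicate number, with the mean ± SD of each group. The axes start at 0. The groups lie apart in Egln1, Egln3 and P4ha1 (mutant lower) and in Vhl (mutant higher), and the squares show control 2 among the mutant values of Bnip3 and Vegfa.

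Among the targets, Vegfa (ENSMUSG00000023951) had the lowest mutant level relative to control. It was at 5.31, 13.7 and 4.59 CPM in mutant 1, 2 and 3, against 53.3, 10.3 and 45.1 CPM in control 1, 2 and 3. Control 1 and control 3 were far above every mutant library, while control 2 lay below mutant 2, so the groups overlapped. The controls alone spanned 5.17-fold and the mutant libraries 2.99-fold. The group means, 7.87 ± 5.07 CPM in mutant and 36.2 ± 22.8 CPM in control cells (SD, n = 3 each), were 4.60-fold apart. The fitted log2 fold change came to -2.20 ± 0.64 (SE; 95% interval from -3.69 to -0.71).

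Bnip3 (ENSMUSG00000078566) showed the same order of libraries. It was at 6.73, 14.0 and 6.52 CPM in mutant libraries, against 48.4, 12.6 and 41.5 CPM in control libraries. Control 2 again lay just below mutant 2 and the other controls far above. The fitted log2 fold change came to -1.91 ± 0.52 (SE; 95% interval from -3.11 to -0.71), on a 3.83-fold span among the controls. The deposited Bnip3 values were not whole numbers, as happens where a read is divided among similar sequences, so the level carries that uncertainty; the same holds for Hif1a and Bnip3l.

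P4ha1 (ENSMUSG00000019916) was at 51.4, 64.1 and 51.5 CPM in mutant libraries, against 103, 77.6 and 92.4 CPM in control libraries. The groups did not overlap, although control 2 was again the lowest control and mutant 2 the highest mutant. The fitted log2 fold change of P4ha1 was -0.71 with an SE of 0.16 (95% interval from -1.09 to -0.33), and the gene had the smallest unadjusted p of the 10 genes, 0.00271, which was rank 68 of 18323 genes tested with edgeR.

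Pdk1 (ENSMUSG00000006494) encodes a kinase that switches off pyruvate dehydrogenase and so keeps pyruvate out of the mitochondrial cycle. It was at 103, 76.2 and 53.9 CPM in mutant libraries, against 138, 103 and 131 CPM in control libraries. Mutant 1 and control 2 were level, at 103.5 and 103.0 CPM, so the groups overlapped, if barely. The fitted log2 fold change came to -0.67 ± 0.24 (SE; 95% interval from -1.23 to -0.11).

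Bnip3l (ENSMUSG00000022051) encodes NIX, the mitophagy receptor most similar to BNIP3 and known for clearing mitochondria from maturing red cells. It was at 99.96, 89.1 and 48.0 CPM in mutant libraries, against 93.3, 75.5 and 93.5 CPM in control libraries. Only mutant 3 lay below the controls. The table also lists a pseudogene, Bnip3l-ps, with which Bnip3l reads could be shared, so the level is uncertain. The fitted log2 fold change came to -0.15 ± 0.26 (SE; 95% interval from -0.75 to 0.46), and without mutant 3 it was 0.11.

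**Figure D2:**
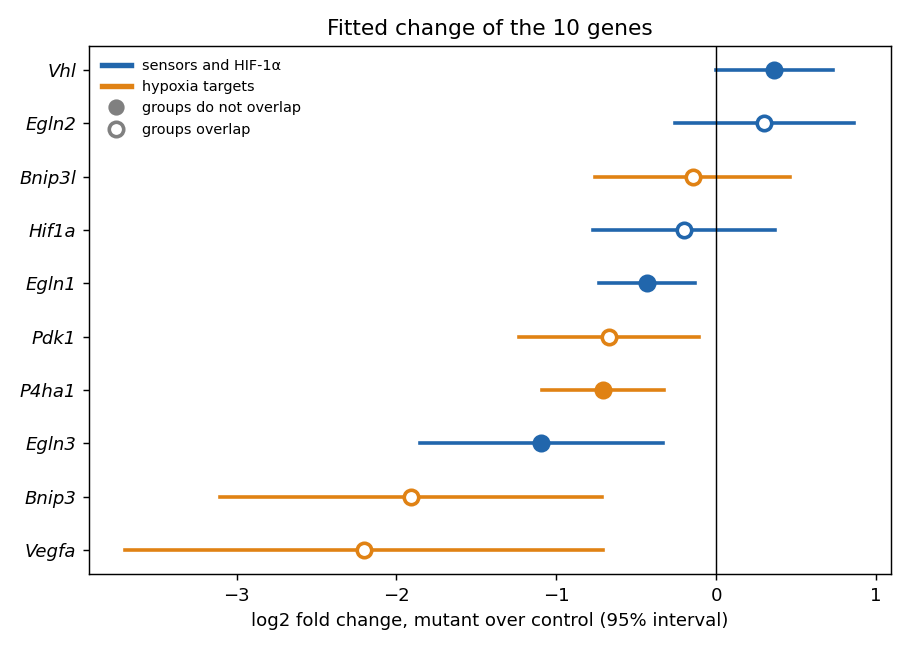
Fitted log2 fold change of each gene, mutant over control, with its 95% interval from edgeR's quasi-likelihood fit on 3 mutant and 3 control libraries. Blue marks the sensing side and orange the targets, and filled points mark genes whose groups do not overlap. The points run from 0.36 for Vhl to -2.20 for Vegfa, and the 2 widest intervals belong to Bnip3 and Vegfa.

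By edgeR's quasi-likelihood test with Benjamini-Hochberg adjustment over all 18323 genes, 0 of the 10 genes passed an adjusted p of 0.05, and 0 genes (0%) passed in the whole table. The adjusted p ran from 0.598 for Bnip3 and P4ha1 to 0.891 for Bnip3l. At an unadjusted p under 0.05 there were 6 of the 10 genes, all with lower mutant levels (Egln1, Egln3, Bnip3, P4ha1, Vegfa and Pdk1), beside 7.62% of the whole table (3.48% lower and 4.14% higher in mutant cells). Without overlap between groups were 4 of the 10, namely Egln1, Egln3 and P4ha1 lower and Vhl higher in mutant cells, beside 14.1% of the table (7.48% lower and 6.6% higher). A log2 fold change of -1 or less was fitted for 3 of the 10 (Egln3, Bnip3 and Vegfa), beside 1.04% of the table. By limma-voom 0 of the 10 and 0 of all genes passed, with the 6 genes named above again at an unadjusted p under 0.05, beside 7.09% of the table. DESeq2 called 99 genes (0.633% of the genes to which it gave an adjusted p), among them Bnip3 (adjusted p = 0.0179) and Vegfa (adjusted p = 0.0197), both lower in mutant cells. Both calls ended without control 1, with DESeq2 adjusted p = 0.439 for Bnip3 and 0.474 for Vegfa. They ended also without control 3, at 0.611 and 0.658, and without mutant 1, at 0.442 and 0.534, and the Vegfa call ended without mutant 3, at 0.304. In the whole table DESeq2 called 16 genes without control 1, 17 without control 3 and 374 without mutant 3. Without mutant 1 DESeq2 instead called Egln3 (adjusted p = 0.00663), P4ha1 (0.0399) and Pdk1 (0.00274), among 215 genes in the whole table. P4ha1, at a DESeq2 adjusted p of 0.0591 with all libraries, was also called without mutant 2 (0.0305) and without control 2 (0.0369), beside Bnip3 and Vegfa. In the whole table DESeq2 then called 143 genes without mutant 2 and 126 without control 2.

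Averaged over genes, the targets were further below the control mean than the sensing side was in all 3 mutant libraries, and in control 2 as well. Relative to the control mean, the mean log2 level of the 5 targets was -1.08, -0.66 and -1.53 in mutant 1, 2 and 3, against 0.41, -0.68 and 0.27 in control 1, 2 and 3. That of the sensing side was -0.06, -0.36 and -0.24 in mutant libraries, against 0.20, -0.12 and -0.07 in control libraries. Control 2 had target levels like those of mutant 2, while its sensing side was near that of control 3. The target level minus the sensing level was -1.03, -0.30 and -1.29 in mutant libraries, against 0.21, -0.55 and 0.34 in control libraries, so control 2 lay inside the mutant range. The group means were -0.87 ± 0.52 in mutant and 0 ± 0.48 in control libraries (SD, n = 3 each). When Egln1 and Egln3 were counted with the targets they resemble in being HIF-induced, the values were -1.19, -0.88 and -1.35 in mutant libraries, against 0.30, -0.49 and 0.19 in control libraries. With that grouping the mutant and control libraries did not overlap. Egln1 and Egln3 already lay below all controls on their own, so this separation adds no further support. All these scores are averages over genes chosen with earlier results known, and no p is given for them.

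**Figure D3:**
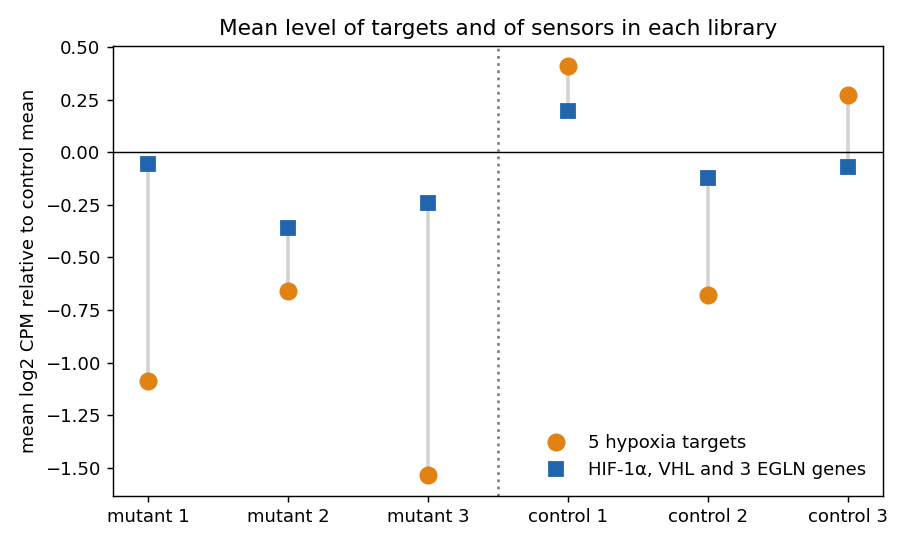
Mean log2 CPM relative to the control mean, for the 5 targets (orange circles) and the 5 genes of the sensing side (blue squares) in each library, mutant on the left and control on the right, with a grey line joining both values of a library. The targets run from -1.53 in mutant 3 to 0.41 in control 1, the sensing side only from -0.36 to 0.20, and control 2 is the control with its targets well below 0.

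Ratios within a library leave its scaling out, and they separated related genes. The log2 ratio of Bnip3 over Bnip3l, relative to the control mean, was -2.32, -1.10 and -1.31 in mutant libraries, against 0.62, -1.01 and 0.39 in control libraries. Control 2 was just above mutant 2, so the separation was narrow. The ratio of Egln3 over Egln2 was -1.42, -1.63 and -1.04 in mutant libraries, against 0.50, -0.52 and 0.02 in control libraries. That of Egln1 over Egln2 was -1.17, -0.33 and -0.56, against 0.09, -0.19 and 0.11. Both EGLN ratios set the groups apart, with all mutant values the lower ones. As Egln1 and Egln3 did so before division by Egln2, the ratios add no further support. The lowest value of Egln1 over Egln2 was in mutant 1, the library with the highest Egln2, 26.7 CPM. The mean differences between mutant and control libraries were -1.57 for Bnip3 over Bnip3l, -1.36 for Egln3 over Egln2 and -0.69 for Egln1 over Egln2. The ratio of Vegfa over Hif1a, a target against its regulator's message, was -1.93, -1.27 and -2.40 in mutant libraries, against 0.57, -1.04 and 0.47 in control libraries.

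**Figure D4:**
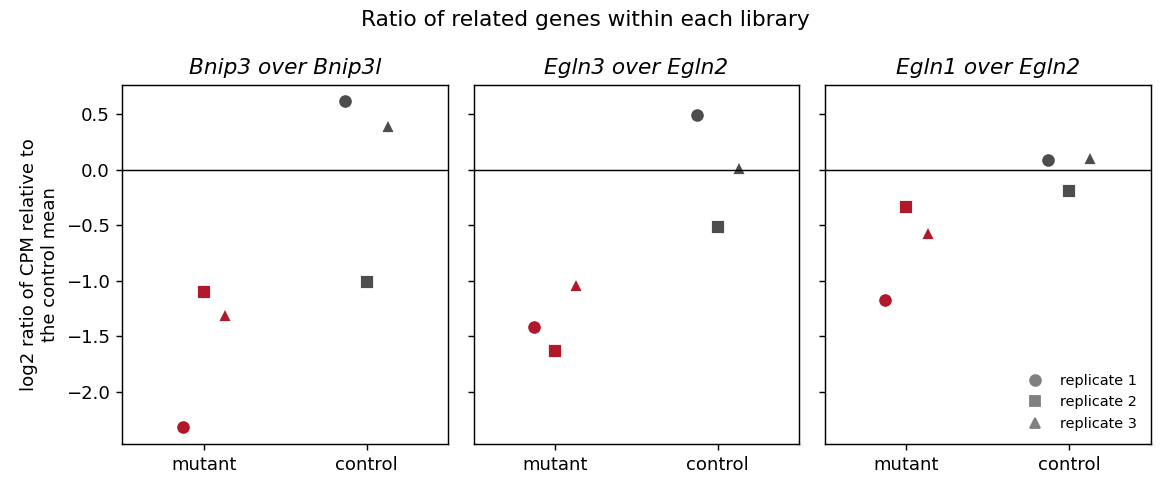
Log2 ratio of the CPM of related genes within each library, relative to the control mean, for mutant (red, left) and control (grey, right) libraries. Bnip3 over Bnip3l shows control 2 at -1.01 beside mutant 2 at -1.10, and the ratios of Egln3 and Egln1 over Egln2 are lower in mutant libraries with no overlap.

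Levels between genes were compared per kilobase of exon, with lengths from the GENCODE M21 annotation. In mutant cells the order of CPM per kilobase was Hif1a at 39.6 ± 9.88, Bnip3l at 24.1 ± 8.35, Egln1 at 16.0 ± 0.27, Pdk1 at 15.0 ± 4.79, P4ha1 at 13.5 ± 1.78, Egln3 at 13.2 ± 4.53, Vhl at 10.1 ± 1.25, Egln2 at 8.85 ± 2.85, Bnip3 at 4.90 ± 2.31 and Vegfa at 2.23 ± 1.44 (SD, n = 3). Only Hif1a had its lowest library above the highest of the next gene, and every other neighbouring pair overlapped in range. Within each of the 3 mutant libraries Hif1a was above Bnip3l, and Bnip3 was above Vegfa. In control cells the order of CPM per kilobase was Hif1a at 45.4 ± 11.5, Egln3 at 28.3 ± 10.3, Bnip3l at 26.7 ± 3.14, Pdk1 at 23.9 ± 3.54, P4ha1 at 22.1 ± 3.07, Egln1 at 21.6 ± 1.95, Bnip3 at 18.4 ± 10.2, Vegfa at 10.3 ± 6.48, Vhl at 7.87 ± 0.76 and Egln2 at 7.18 ± 0.82 (SD, n = 3). In the control order every neighbouring pair overlapped in range, while Hif1a was above Egln3, Bnip3l above Pdk1, Pdk1 above P4ha1, and Bnip3 above Vegfa within each of the 3 libraries. Hif1a had the highest mean of the 10 genes in both groups. Bnip3 and Vegfa had the lowest means in mutant cells, whereas in control cells Vhl and Egln2 did.

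The genes whose centred log2 profile over the 6 libraries lay nearest to the mean of the 5 targets were Gm10297, Slc1a4, Aldoc, Pfkp and A630091E08Rik, at root mean square differences from 0.114 to 0.182, where the median gene tested was at 0.753. Slc1a4 encodes a carrier of neutral amino acids, and Pfkp and Aldoc encode glycolytic enzymes. Slc1a4 was at 19.2, 20.1 and 12.1 CPM in mutant libraries, against 44.9, 23.5 and 46.0 CPM in control libraries, again with control 2 next to the mutant values. Nearest to Hif1a lay Gdpd1, Klf7, Epb42, 9530082P21Rik and Arl14ep, at 0.0253 to 0.0785, where the median gene was at 0.431. Some of the genes near either profile had few counts. Epb42 had 10 to 19 deposited counts per library, and Gm10297 had 17.1 to 59.3. Klf7, a zinc finger transcription factor gene, was at 41.1, 67.9 and 50.9 CPM in mutant libraries, against 70.2, 45.4 and 64.7 CPM in control libraries. These distances were not tested.

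Other genes of the pathway were read from 8 lists drawn up by function. None held a gene called by edgeR (0 members) or by DESeq2 (0 members), while 8 of the glycolytic targets and 0 to 3 genes of each other list had an unadjusted edgeR p under 0.05, beside 7.62% of the table. Each of the 17 glycolytic HIF targets had a lower mean in mutant cells, the median log2 fold change being -0.62. For 11 of the 17 the groups did not overlap, where 7.48% of the table was lower in this way. Lactate dehydrogenase A, from Ldha, was at 1210 ± 359 CPM in mutant and 1705 ± 86.3 CPM in control cells. Pyruvate kinase, from Pkm, was at 1019 ± 309 CPM in mutant and 1410 ± 65.7 CPM in control cells, and the aldolase gene Aldoa at 478 ± 99.7 and 753 ± 135 CPM in mutant and control cells (SD, n = 3 each). Without mutant 1 the median of the list was -0.34, and all 17 values were still below 0; the naive markers of mutant 1 are given above, and their part in this was not tested.

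The 29 tested HIF targets outside the glycolytic list were more mixed, with 23 lower and 6 higher means. Pfkfb3 and Pfkfb4, which act on glycolysis, were counted here. The median log2 fold change of the 29 was -0.18. Of these genes 3 were lower without overlap, where 7.48% of the table was lower without overlap. The 4 most abundant included Ero1a, an oxidase of the endoplasmic reticulum, at 128 ± 53.5 CPM in mutant and 193 ± 49.5 CPM in control cells, and the histone demethylase gene Kdm3a at 109 ± 21.2 CPM in mutant and 116 ± 7.47 CPM in control cells. Ddit4, an inhibitor of mTOR signalling that stress as well as HIF induces, was at 99.7 ± 47.9 CPM in mutant and 99.9 ± 18.7 CPM in control cells (SD, n = 3 each). Rora, a nuclear receptor gene of T helper cells, was at 103 ± 22.1 CPM in mutant and 99.2 ± 26.6 CPM in control cells. The median of this list was -0.42 without mutant 2 and -0.11 without control 1, and the number of lower means was 19 without mutant 3 and 20 without control 2.

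The list of machinery around the 10 genes held mainly partners, ligase subunits and coactivators of HIF. Its median log2 fold change was 0.04 over 16 tested genes, with 9 higher and 7 lower means. The median lay between 0.0055 and 0.14 with 1 library left out. The coactivator genes Crebbp and Ep300 lay higher in every mutant library. Crebbp was at 390, 276 and 292 CPM in mutant libraries, against 241.2, 241.3 and 241.5 CPM in control libraries, and Ep300 at 222 ± 5.27 CPM in mutant and 192 ± 15.0 CPM in control cells. Bhlhe40, a transcriptional repressor gene induced on T cell activation, was at 366 ± 127 CPM in mutant and 447 ± 61.1 CPM in control cells. The chaperone gene Hsp90ab1, whose protein holds HIF-1α before it dimerises, was at 3355 ± 974 CPM in mutant and 3802 ± 440 CPM in control cells (SD, n = 3 each).

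Around Pdk1, 9 of 10 tested genes of pyruvate dehydrogenase, its kinases and phosphatases had lower means, with a median log2 fold change of -0.13 and 4 lower members without overlap, beside 7.48% of the table. That median was -0.06 without control 2 and -0.20 without control 1. Among them Pdha1, the catalytic subunit that PDK1 phosphorylates, was at 209 ± 5.92 CPM in mutant and 227 ± 34.3 CPM in control cells, and Dld at 103 ± 16.6 CPM in mutant and 129 ± 7.53 CPM in control cells. Around Bnip3, 14 of 16 tested mitophagy genes had higher means, with a median of 0.16 and 0 members without overlap, beside 14.1% of the table in either direction. That direction rested on mutant 1, the library with the high naive markers: without it 13 of the 16 had lower means and the median was -0.04. Without mutant 3 the median was 0.28. Tax1bp1 was at 226 ± 50.1 CPM in mutant and 203 ± 8.04 CPM in control cells, and Phb2 at 175 ± 42.2 CPM in mutant and 206 ± 33.7 CPM in control cells (SD, n = 3 each).

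Around P4ha1, 8 of 10 tested genes of collagen hydroxylation had lower means, with a median log2 fold change of -0.11. Left out in turn, mutant 3 gave a median of -0.29, control 1 gave -0.17 and control 2 gave -0.05. P4hb, the partner subunit of P4HA1, was at 229, 289 and 302 CPM in mutant libraries, against 303, 346 and 305 CPM in control libraries, which lie just above. Plod2, a lysyl hydroxylase, was at 39.6 ± 7.77 CPM in mutant and 39.5 ± 6.54 CPM in control cells (SD, n = 3 each). Of the VEGF family and its receptors only 3 of 9 genes passed the filter on low counts. Vegfb was at 3.17, 4.70 and 4.37 CPM in mutant libraries, against 6.56, 4.76 and 5.76 CPM in control libraries. The coreceptor gene Nrp1, used as a marker of regulatory T cells, was at 151 ± 40.5 CPM in mutant and 121 ± 22.2 CPM in control cells, and Nrp2 at 2.35 ± 0.46 CPM in mutant and 0.92 ± 0.34 CPM in control cells without overlap (SD, n = 3 each). The other oxygenases that, like the EGLN enzymes, use 2-oxoglutarate had a median log2 fold change of -0.02 over 21 genes, with 9 higher and 12 lower means, and between -0.08 and 0.0010 with 1 library left out. Alkbh5, an RNA demethylase, was at 232 ± 15.3 CPM in mutant and 275 ± 15.0 CPM in control cells, and Tet3, an oxidase of methylcytosine, at 293 ± 62.6 CPM in mutant and 217 ± 14.2 CPM in control cells (SD, n = 3 each).

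**Figure D5:**
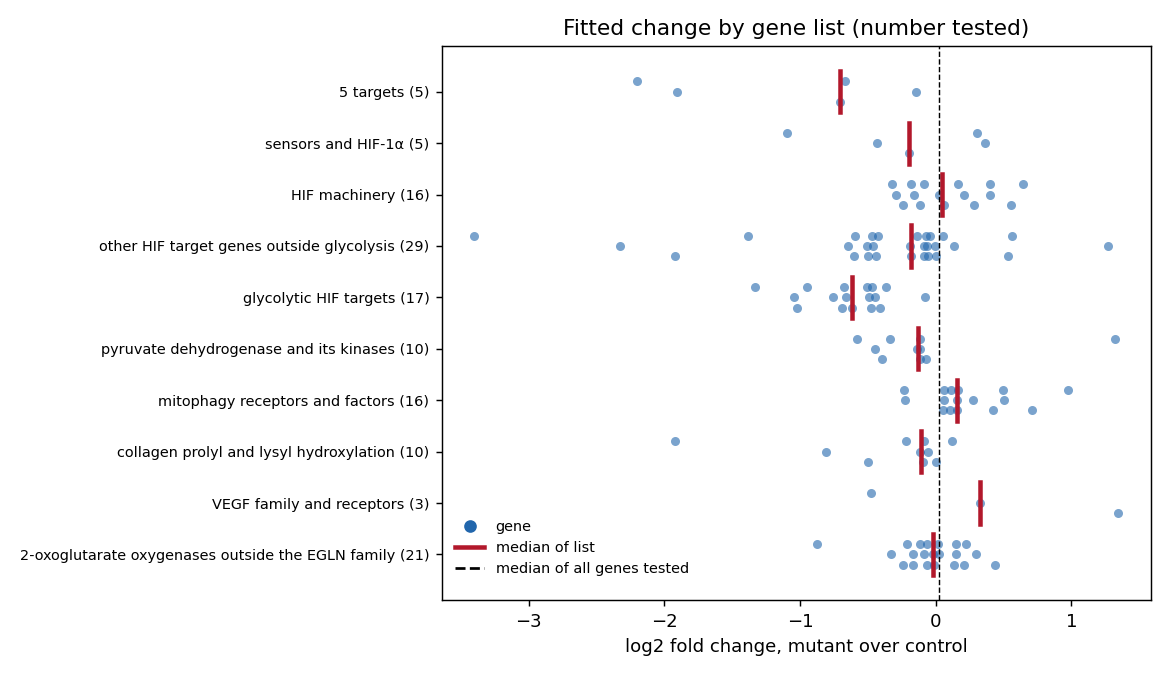
Fitted log2 fold change, mutant over control, of each tested gene in the 10 groups shown (blue points; the number tested is in brackets), with the median of each group in red and the median of all 18323 genes, 0.02, as a dashed line. The glycolytic HIF targets lie to the left of 0 with a median of -0.62, and the HIF machinery and the other oxygenases lie around 0.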

How the data were processed

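The authors deposited estimated counts per gene for 6 libraries, which were not normalized and of which 57.8% of the values were exactly whole, with no tolerance. Per the labels' protocols, ribosomal RNA was removed from 1.0 µg of total RNA per sample. Per the submitters' processing notes, GRCm39, mm39, STAR 2.7.8a and Partek were used; what each was used for, the annotation and whether counting used strand are not stated. Counts were rounded to whole numbers. The filterByExpr step (minimum count 10) kept 18323 of 26469 rows and all 10 genes described. TMM scaling and robust quasi-likelihood tests in edgeR 4.0.16 (R 4.3.3) compared mutant with control without covariates; two-sided p-values received a Benjamini-Hochberg adjustment across the 18323 genes. Intervals cover 95%. Log2 CPM used a prior count of 2. DESeq2 1.42.0, limma-voom (limma 3.58.1), other scalings and filters, the replicate block and leaving out each library were alternatives. The procedure was also run on simulated counts with set changes and no outlying library, which does not bear on the results given here. Where the text names genes from a list of which none passed, it takes the 2 to 4 most abundant tested members. Vldlr, Stc2, P4ha2, Ak4, Slc1a4 and Klf7 were given more room after their values were seen. The genes and lists were chosen with earlier results of these data known. Libraries within a group differed by more than counting noise (chi-square over its degrees of freedom, 18.7 to 177), so none was a repeat deposit.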

Additional observations from a re-analysis of the deposited data

How the results depend on the processing

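DESeq2 called 99 genes and 2 of the 10 (Bnip3 and Vegfa), where edgeR called 0. Every other alternative run with edgeR or limma-voom called 0 genes, with 618 (without control 3) to 2426 (without mutant 3) genes at an unadjusted p under 0.05. Of 130 values of the 10 genes under 13 alternatives, 127 kept direction and side of the threshold, 2 were the DESeq2 calls, and 1 was of opposite sign: Bnip3l at 0.11 without mutant 3, with the cause not tested. DESeq2 gave 0.083 for Bnip3l without mutant 3 and -0.0019 for Egln2 without mutant 1, again of opposite sign. Leaving out 1 library at a time from the DESeq2 fit, an alternative added after seeing the data, gave between 16 (without control 1) and 374 (without mutant 3) called genes. With 1 library left out the target minus sensing difference ran from -1.16 to -0.66, and it was -1.14 with Egln1 and Egln3 among the targets. The log2 fold change of Hif1a ran from -0.39 to -0.04, of Vegfa from -2.85 to -1.82, of Bnip3l from -0.34 to 0.11, of Bnip3 from -2.35 to -1.58 and of Egln3 from -1.31 to -0.76. Whether samples with the same replicate number belong together is not stated. Deviations of same-numbered libraries correlated at -0.048, -0.067 and -0.028, which shows no sign of pairing and does not settle the question. With the replicate block 0 genes were called, and 4 of the 10 had an unadjusted p under 0.05, beside 991 genes in the whole table. The 4 were Egln1, Egln3, P4ha1 and Pdk1. Bnip3 and Vegfa, both under 0.05 in the main test, had an unadjusted p of 0.0587 and 0.0943 in the test with the replicate block. The smallest deposited count among the 10 genes was 169.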

Other observations

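In 4 further HIF targets, as in Bnip3 and Vegfa, control 1 and control 3 were the highest libraries and control 2 lay below mutant 2. They are examples, picked after their values were seen, and are given as values. Ero1a, Hmox1, Pfkp, Aldoc and Slc16a3 showed this pattern too. Vldlr, which encodes a lipoprotein receptor, was at 0, 1.44 and 0.163 CPM in mutant 1, 2 and 3, against 10.1, 0.639 and 6.31 CPM in control 1, 2 and 3. Stc2, which encodes a secreted glycoprotein, was at 0.735, 2.15 and 0.245 CPM in mutant libraries, against 7.84, 1.60 and 6.28 CPM in control libraries. P4ha2, which encodes another catalytic subunit of collagen prolyl 4-hydroxylase, was at 0.565, 1.44 and 0.869 CPM in mutant libraries, against 6.18, 0.614 and 4.16 CPM in control libraries. The order among mutant 1, mutant 3 and control 2 was not the same in these genes. Ak4, a mitochondrial adenylate kinase gene, was at 1.24, 17.8 and 10.8 CPM in mutant libraries, against 41.6, 13.7 and 22.2 CPM in control libraries.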
